A study of Mus musculus with 8 samples.

Results

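Nr1d1, which encodes the circadian nuclear receptor REV-ERB alpha, lies in a dense stretch of mouse chromosome 11. The rows described here are the 5 named rows of the deposited tables that lie within 50 kb of it, Nr1d1 itself left out: Thra, Gm57390, Med24, Msl1 and Casc3. They are 5 of the 78298 rows of the table, and all 5 were among the 17128 rows expressed highly enough to be tested. The window holds 10 rows besides Nr1d1. Of the 5 that are not on the list, 4 had between 0 and 12.5 counts in any library and were not tested, and Gm12359 was tested. The list was selected on position around Nr1d1, a gene chosen by its own difference between the groups, after Thra and Gm57390 had also been seen to be higher with Mic-628 in these same 8 libraries. The differences of the 5 rows between the groups are therefore given as a description, with no test.

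The libraries are poly(A) RNA-seq of NIH3T3 cells, a mouse embryonic fibroblast line labelled wild type. Vehicle or Mic-628, the compound that the series title calls a Period1 inducer, was given for 1 day, with 4 libraries in each group. The labels give neither the dose nor the composition of the vehicle. Each batch number in the labels is shared by 1 vehicle and 1 Mic-628 library. Whether replicates are separate cultures is not stated.

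Thra encodes thyroid hormone receptor alpha, a nuclear receptor that binds DNA with retinoid X receptors and switches from repression to activation when hormone binds. Its gene and Nr1d1 are a textbook case of genes that point at each other from opposite strands. Alternative splicing of Thra gives a hormone-binding form and a form with another C-terminus that does not bind hormone, and the last exon of the latter is antisense to the last exon of Nr1d1. REV-ERB alpha is a repressor of the circadian clock that binds the same kind of half-site as the thyroid hormone receptors. Med24 encodes a subunit of Mediator, the complex that links transcription factors to RNA polymerase one form of which was first isolated through its binding to thyroid hormone receptors. Msl1 encodes the scaffold of the MSL histone acetyltransferase complex. Casc3 encodes a core protein of the exon junction complex, which is left on spliced mRNA. Gm57390 is a predicted gene.

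The rows lie around Nr1d1 as follows, on build mm39 with the coordinates of the deposited table. Nr1d1 spans chr11:98658758-98666159 on the minus strand, so its 3′ end is the one with the lower coordinate. Thra (transcript ENSMUST00000103139.11, chr11:98632699-98655937, plus strand) ends 2821 bases short of that 3′ end, tail to tail with it. Gm57390 (ENSMUST00000247115.2, chr11:98657199-98658573, plus strand) lies in between, 1262 bases past the end of Thra and 185 bases before the end of Nr1d1. Its exon length, 1374 bases, is nearly its whole span of 1375, so the row is in effect a single exon. Med24 (ENSMUST00000017354.13, chr11:98595417-98620261, minus strand) lies beyond Thra, 38497 bases from Nr1d1. On the other side, past the start site of Nr1d1, lie Msl1 (ENSMUST00000037915.9, chr11:98686342-98698685) and Casc3 (ENSMUST00000017384.14, chr11:98695731-98724640), both on the plus strand, at 20183 and 29572 bases. Their rows share a span of 2955 bases.

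**Figure D1:**
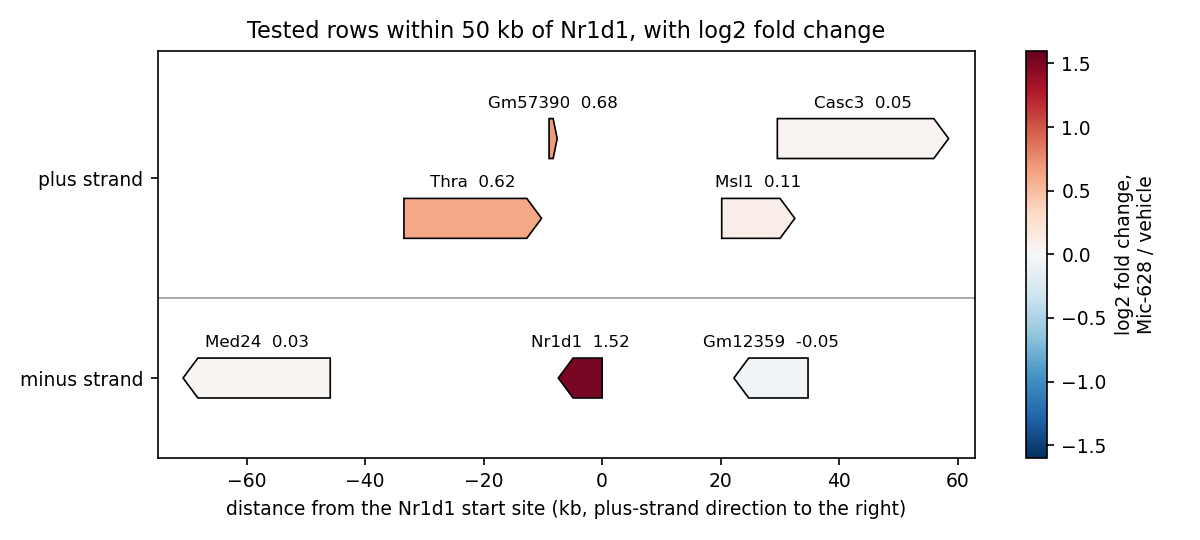
Tested rows within 50 kb of Nr1d1, drawn to scale by distance from the Nr1d1 start site (kb) and by strand, with the arrow pointing in the direction of transcription and the colour and the number giving the log2 fold change of Mic-628 over vehicle. The 2 rows that face the 3′ end of Nr1d1, Thra (0.62) and Gm57390 (0.68), are higher, while Med24, Msl1, Casc3 and Gm12359 lie between -0.05 and 0.11.

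The stretch where both genes code on opposite strands is shown because it bears on which reads each row can hold. In the GENCODE M21 annotation, on build GRCm38, the transcript of the Thra row is Thra-202, the same identifier in an earlier version, which shares 0 exon bases with Nr1d1. Transcript Thra-201 runs 1075 bases past the 3′ end of Nr1d1 on the other strand. It shares 263 exon bases with it, 197 of them coding in both genes (GRCm38, chr11:98768223-98768419). The plus strand reads as Thra-201 and the minus strand as Nr1d1, each 5′ to 3′:

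Thra-201: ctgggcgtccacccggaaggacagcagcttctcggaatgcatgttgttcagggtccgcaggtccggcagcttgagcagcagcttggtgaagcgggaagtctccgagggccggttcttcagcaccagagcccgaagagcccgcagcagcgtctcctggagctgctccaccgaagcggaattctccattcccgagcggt

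Nr1d1: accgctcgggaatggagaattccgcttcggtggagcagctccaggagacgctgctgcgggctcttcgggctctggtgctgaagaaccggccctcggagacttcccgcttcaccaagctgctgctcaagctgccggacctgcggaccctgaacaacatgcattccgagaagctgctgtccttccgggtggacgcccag

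The library kit marks strand, per the labels, but whether the deposited counts use it is not settled. Thra-203, another coding transcript of M21, shares 130 exon bases with Nr1d1, all of them coding in both. Reads of Thra-201 or Thra-203 from shared bases could fall on the Nr1d1 row. The Thra row holds no exon of M21 that Nr1d1 reads would cover. Neither Thra-201 nor Thra-203 was analysed here.

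Thra was expressed at 22.5, 22.6, 22.2 and 21.7 FPKM (counts scaled to exon length and to the library total) in vehicle replicates 1 to 4, and at 32.6, 36.9, 32.5 and 34.6 FPKM in Mic-628 replicates 1 to 4. Every Mic-628 library was above every vehicle library, and the vehicle libraries lay within 1 FPKM of each other. The means were 22.2 ± 0.384 and 34.2 ± 2.06 FPKM (SD, n = 4 each). The fitted log2 fold change was 0.62 (SE 0.041), or 1.54-fold (95% interval 1.45 to 1.63). Within the 4 batch numbers the log2 difference ran from 0.54 to 0.70. These values rest on 1093.5 to 2059.5 counts per library.

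Gm57390 was weaker. It had 5.57, 5.33, 5.89 and 4.64 FPKM with vehicle and 8.20, 8.83, 8.97 and 8.32 FPKM with Mic-628, again without overlap. The means were 5.36 ± 0.529 and 8.58 ± 0.379 FPKM (SD, n = 4 each), and the log2 fold change was 0.68 (SE 0.078), or 1.61-fold (95% interval 1.44 to 1.79). Counts ranged from 147 to 304, so its interval is wider than that of Thra and contains the fold change of Thra.

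Nr1d1, from which the distances are measured, had 15.3, 16.1, 17.2 and 17.3 FPKM with vehicle and 45.9, 49.2, 46.1 and 47.9 FPKM with Mic-628. The fitted log2 fold change was 1.52 (SE 0.040), a larger step than that of either neighbour. Of all tested rows, 7 had a larger log2 fold change than Nr1d1, 73 than Gm57390 and 90 than Thra.

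Med24, on the far side of Thra, had 11.9, 11.97, 12.3 and 12.8 FPKM with vehicle and 11.8, 13.55, 12.2 and 12.2 FPKM with Mic-628. The groups overlapped, and 1 of 4 batch pairs was higher with Mic-628. The fitted log2 fold change was 0.03 (95% interval -0.067 to 0.117).

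Msl1 had 13.6, 13.6, 13.0 and 12.5 FPKM with vehicle and 14.4, 15.1, 13.8 and 13.6 FPKM with Mic-628. It was higher in 4 of 4 batch pairs, by 0.08 to 0.15 on the log2 scale, but the groups just overlapped: the lowest Mic-628 library had 13.61 FPKM and the highest vehicle library 13.63 FPKM. The log2 fold change was 0.11 (95% interval 0.027 to 0.191), and the row was not called in the fit over all rows.

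Casc3, a strongly expressed row, had 19.8, 18.9, 19.9 and 19.9 FPKM with vehicle and 21.1, 19.9, 20.2 and 19.9 FPKM with Mic-628. Vehicle replicate 2 was the low library. The groups overlapped by a narrow margin: vehicle replicate 4, at 19.897 FPKM, lay above the lowest Mic-628 library, at 19.881 FPKM, and the other 3 vehicle libraries lay below it. The row was higher in 3 of 4 batch pairs. The log2 fold change was 0.05 (95% interval -0.024 to 0.121). Gm12359, the tested row of the window that is not on the list, lies on the minus strand across Msl1 and Casc3 and ran from 8.52 to 10.8 FPKM with vehicle and from 8.72 to 10.2 FPKM with Mic-628 (log2 fold change -0.05). In M21 the exons of all its transcripts together (1823 bases) share 266 bases with those of Msl1 and 494 with those of Casc3, on the opposite strand. The counted row has 807 exon bases, and how many of these are shared was not determined, so its level is uncertain. Whether reads from shared bases fall on the wrong row was not tested for Gm12359, Msl1 or Casc3.

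**Figure D2:**
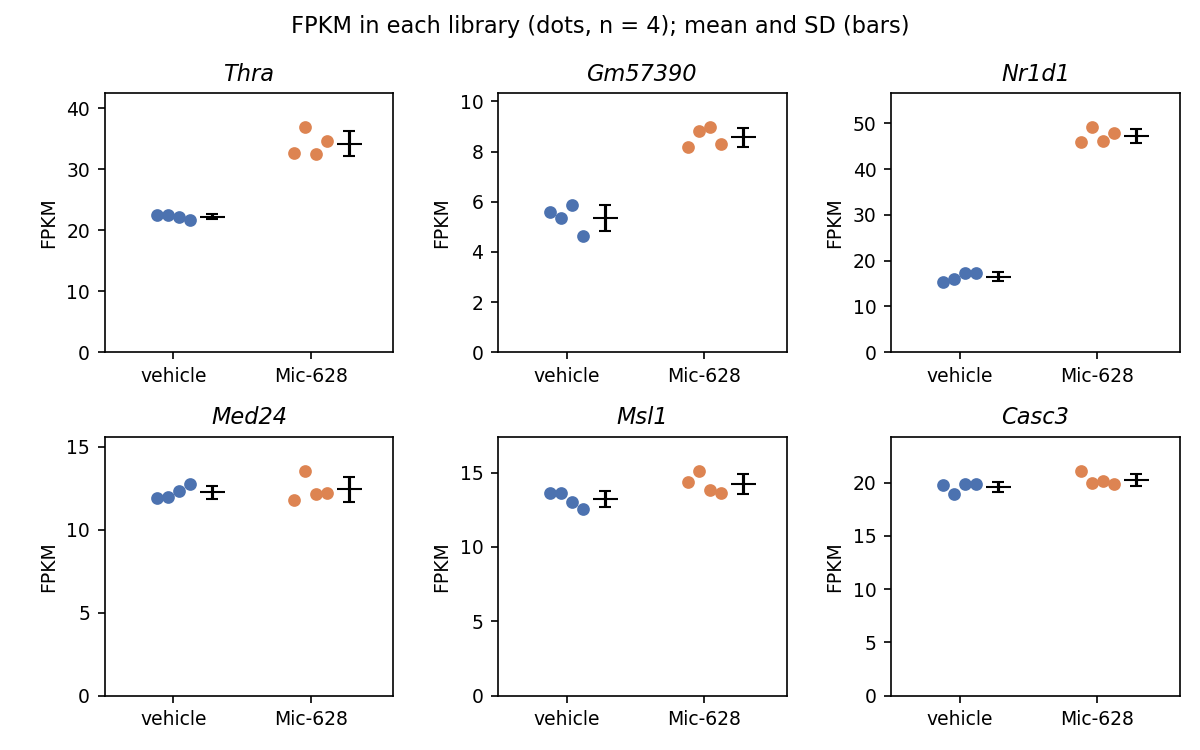
FPKM of Nr1d1 and the 5 rows (y axis, from 0) in each vehicle and each Mic-628 library (dots, n = 4 per group), with the mean and SD as bars beside them. Thra, Gm57390 and Nr1d1 are higher in every Mic-628 library than in any vehicle library, whereas the groups overlap for Med24, Msl1 and Casc3.

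By edgeR's quasi-likelihood test with an adjusted p under 0.05, 2 of the 5 rows, Thra and Gm57390, were called higher and 0 lower. Of all tested rows, 2.13% were called higher, 2.25% lower and 4.37% in either direction. DESeq2 also called both members, and 3.9% of the rows it tested. By edgeR the share in either direction was 2.46% without vehicle replicate 2 and 2.53% without Mic-628 replicate 3. The same 2 rows were higher in every Mic-628 library than in any vehicle library, as were 5.68% of tested rows. Since these values led to the list, the counts stand here as a description. The median log2 fold change of all tested rows was -0.004.

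Per exon length, Thra was the highest of the 5 rows with vehicle, followed by Casc3 (19.6 ± 0.479 FPKM), Msl1 (13.2 ± 0.527), Med24 (12.2 ± 0.397) and Gm57390 (SD, n = 4 each). The vehicle libraries of Msl1 and Med24 overlapped, and no other neighbours in that order did. With Mic-628 the order of the 5 was the same, with Casc3 at 20.3 ± 0.568, Msl1 at 14.2 ± 0.675 and Med24 at 12.4 ± 0.765 FPKM (SD, n = 4 each). Nr1d1 lay between Casc3 and Msl1 with vehicle, at 16.5 ± 0.970 FPKM, and above all 5 rows with Mic-628, at 47.3 ± 1.55 FPKM (SD, n = 4 each).

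The ratio of the FPKM of Gm57390 to that of Thra was 0.248, 0.236, 0.265 and 0.214 with vehicle and 0.251, 0.240, 0.276 and 0.240 with Mic-628. The groups overlapped, while the ratio was higher with Mic-628 in 4 of 4 batch pairs. The Gm57390 row lies close to the ends of the Thra and Nr1d1 rows. On GRCm38, Thra-201 runs through the gap between the ends of Thra-202 and Nr1d1. By its place Gm57390 would therefore lie within the span of Thra-201, but no coordinates were converted. Whether the counts of Gm57390 hold reads from transcripts of Thra or Nr1d1 was not tested. The ratio of Gm57390 to Nr1d1 was 0.269 to 0.365 with vehicle and 0.174 to 0.195 with Mic-628, without overlap. Nr1d1 stood at 0.741 ± 0.0545 of Thra with vehicle and at 1.39 ± 0.0378 of it with Mic-628 (SD, n = 4 each). In FPKM the mean difference between groups was 30.8 for Nr1d1, 11.9 for Thra and 3.22 for Gm57390.

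**Figure D3:**
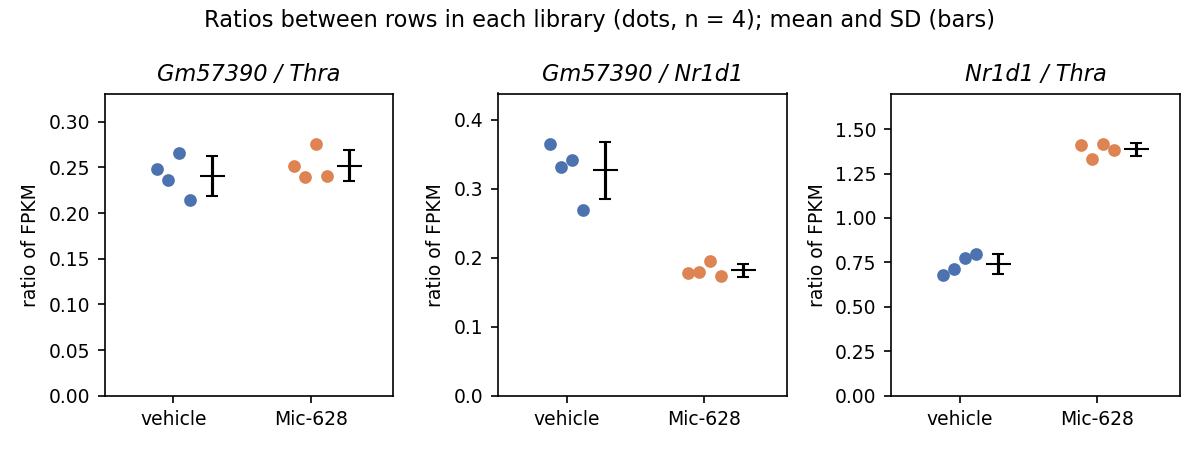
Ratios of FPKM between rows (y axes, from 0) in each vehicle and each Mic-628 library (dots, n = 4 per group), with the mean and SD as bars. Gm57390 over Thra overlaps between the groups, Gm57390 over Nr1d1 is lower in every Mic-628 library, and Nr1d1 over Thra is higher in every Mic-628 library.

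The 4 untested rows of the window stayed near 0. ENSMUSG00000142959, on the plus strand 150 bases upstream of it, had 3.5 to 12.5 counts with vehicle and 6 to 8 with Mic-628. ENSMUSG00000129623, inside Nr1d1 on the same strand, had 0 counts in the 4 vehicle libraries and 2, 0, 1 and 2 with Mic-628. ENSMUSG00000142988 and ENSMUSG00000123930, 7351 and 14325 bases upstream of the start site, had at most 5 and 2 counts. At these counts no difference was detectable.

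At the edge of the window, the outermost member was Med24, at 38497 bases. The first rows outside were Gm22059, a row of at most 2 counts at 56843 bases, and Rapgefl1 at 61452 bases, which had 1.07 ± 0.0993 FPKM with vehicle and 1.07 ± 0.175 FPKM with Mic-628 (SD, n = 4 each). Psmd3, a proteasome subunit gene, was the nearest tested row outside on the side of Med24. There the log2 fold change was 0.03, with an edgeR adjusted p of 0.667.

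Rows farther out lie beyond the window that drew up the list, and their calls come from the same fit over all rows. The median log2 fold change of the 19 tested rows 50 to 500 kb from Nr1d1 was 0.01. Of these rows, 2 were called (10.5%, against 4.37% of all tested rows), 1 higher and 1 lower. Both lie on the side of the Nr1d1 start site. Rara, which encodes retinoic acid receptor alpha and lies 152485 bases from Nr1d1, fell. It had 18.1, 17.2, 18.0 and 16.8 FPKM with vehicle and 14.6, 16.04, 15.2 and 15.4 FPKM with Mic-628. The change was -0.19 on the log2 scale (SE 0.042; edgeR adjusted p = 0.00773), opposite in sign to that of Thra. Cdc6, a replication licensing gene, rose by 0.31 on the log2 scale (SE 0.089; edgeR adjusted p = 0.04996), at 1.78 ± 0.251 FPKM with vehicle and 2.21 ± 0.165 FPKM with Mic-628 (SD, n = 4 each). It was not called in 12 of 17 other settings, among them DESeq2 (adjusted p = 0.0708), the fit with the batch number as a block (0.0596), and the fits that left out 1 library, either vehicle replicate 1, 2 or 3 or replicate 1, 3 or 4 of Mic-628 (0.0628 to 0.178). On the side of Thra, edgeR called 0 of 11 rows, as did DESeq2, and 1 had an unadjusted p under 0.05.

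**Figure D4:**
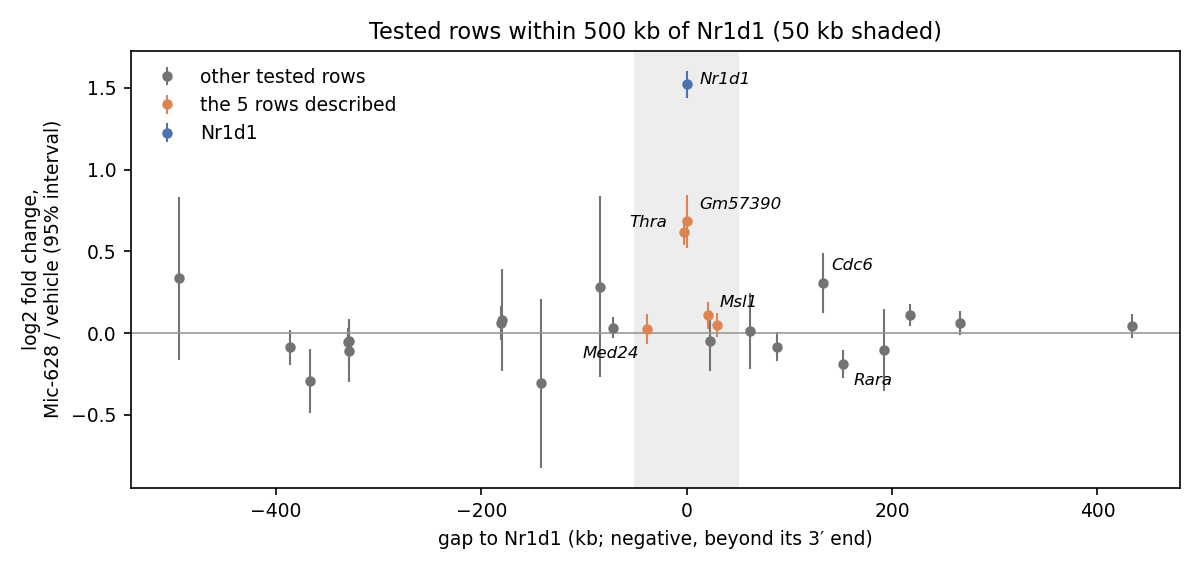
Log2 fold change of Mic-628 over vehicle with its 95% interval (y axis) for each tested row within 500 kb of Nr1d1, by its gap to Nr1d1 (x axis, kb). Nr1d1 (1.52), Gm57390 (0.68) and Thra (0.62) stand above the other rows, which lie between -0.31 and 0.33.

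The known partners of the encoded proteins were taken from lists of pathway genes, each read beside the 4.37% of all tested rows that were called. Of 16 tested genes for receptor partners and coregulators of thyroid hormone receptors, edgeR and DESeq2 each called 0, and 1 had an unadjusted p under 0.05. That gene was Thrb, for thyroid hormone receptor beta, with 0.636 FPKM with vehicle and 0.774 FPKM with Mic-628 (log2 fold change 0.27, SE 0.125, edgeR adjusted p = 0.262). Next came the coactivator gene Ncoa3, with 0.08 and an edgeR adjusted p of 0.338. The heterodimer partner genes Rxra and Rxrb had log2 fold changes of -0.06 and -0.04, and the corepressor gene Ncor1 of -0.01 (edgeR adjusted p 0.449, 0.652 and 0.937). The median of the list was 0.003.

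Of 10 genes of thyroid hormone transport and metabolism, 3 passed the filter on low counts, and edgeR and DESeq2 each called 0 of them, with 0 at an unadjusted p under 0.05. The amino acid transporter gene Slc7a5, which also carries thyroid hormone, had 75.4 FPKM with vehicle and 79.35 FPKM with Mic-628. The transporter gene Slc16a10 had 1.34 and 1.22 FPKM. The deiodinase genes Dio1 and Dio3 were listed at 0 in every library, and Dio2, whose product makes active hormone, reached at most 0.129 FPKM.

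Among 15 genes known as thyroid hormone targets, 7 were tested and 1 was called. Klf9, an early response gene of several nuclear receptors, rose from 19.1 ± 0.408 to 27.99 ± 0.586 FPKM (SD, n = 4 each; log2 fold change 0.55, SE 0.033, edgeR adjusted p = 1.36e-11), in 4 of 4 batch pairs. The other 6 were not called: Me1 (0.03), Rcan2 (0.03), Atp2a2 (0.03), Gpd2 (0.08), Cpt1a (-0.09) and Hr (-0.29), given as log2 fold changes. The median over the 7 was 0.03.

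None of the 32 other Mediator subunit genes was called by edgeR or DESeq2, and 3 had an unadjusted p under 0.05. Their median log2 fold change was 0.005. The smallest p values belonged to Cdk8, which encodes the kinase of the complex (0.10, edgeR adjusted p = 0.146), and Med12l (-0.27, edgeR adjusted p = 0.161). Med14, the backbone subunit gene, was called when vehicle replicate 4 was left out (0.14, edgeR adjusted p = 0.0431). Med24 lay within the range of the other subunits, which was -0.27 to 0.12.

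Of 12 tested genes of the MSL complex and the related NSL complex, 1 rose and 1 fell. Kansl2, an NSL subunit gene, rose from 18.9 to 21.7 FPKM (log2 fold change 0.20, SE 0.037, edgeR adjusted p = 0.00165). Ogt, whose product adds N-acetylglucosamine to proteins and is found with NSL, fell from 45.1 to 41.6 FPKM (-0.12, SE 0.033, edgeR adjusted p = 0.0421). Ogt was not called in 10 of 17 other settings. Among them were the fit with the batch number as a block (edgeR adjusted p = 0.0550) and edgeR with library size only (0.0597). Others left out vehicle replicate 2 or 3, or replicate 1, 3 or 4 of Mic-628 (edgeR adjusted p 0.0801 to 0.191). The rest were the limma-trend fits on FPKM (limma adjusted p 0.12 to 0.226). The other MSL genes had log2 fold changes of -0.02 (Msl2), 0.05 (Msl3) and -0.01 (the acetyltransferase gene Kat8), and the median of the list was 0.01.

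Of 20 genes of the exon junction complex and nonsense-mediated decay, the pathways of Casc3, edgeR and DESeq2 called 0, and 0 had an unadjusted p under 0.05. The core genes Eif4a3, Rbm8a and Magoh had log2 fold changes of -0.01, 0.03 and 0.07, and the smallest p values belonged to Pnn (0.08) and Rnps1 (0.07; edgeR adjusted p 0.307 and 0.331). The median was 0.015.

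**Figure D5:**
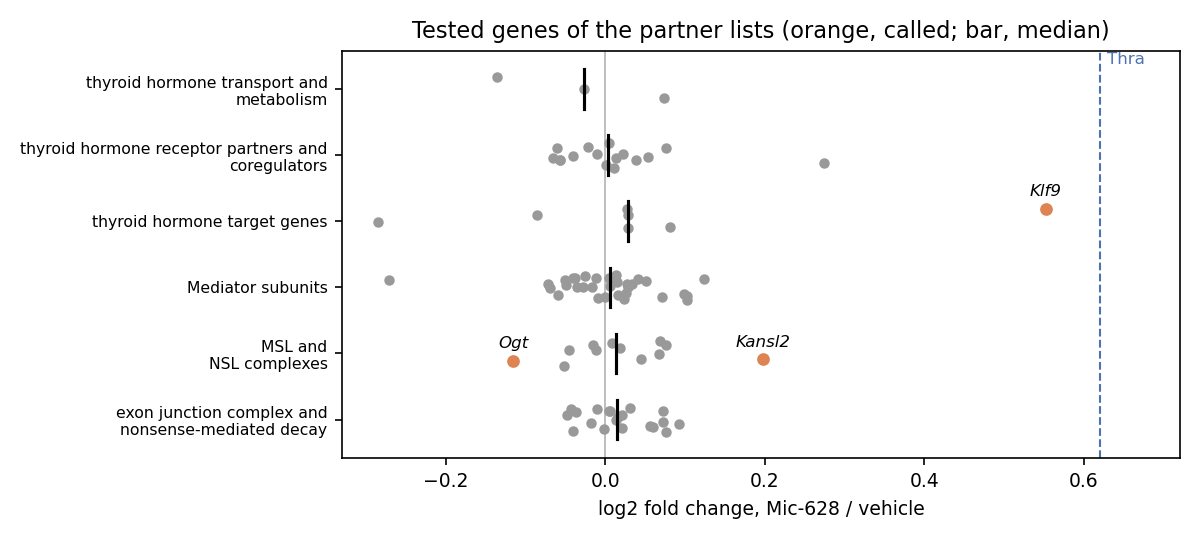
Log2 fold change of Mic-628 over vehicle (x axis) for each tested gene of the 6 partner lists (y axis), with called genes in orange and the list median as a bar. Klf9, Kansl2 and Ogt are the called genes, and the dashed line marks Thra (0.62).

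The rows whose profile over the 8 libraries was most like that of Thra were found by the root mean square difference of log2 CPM (counts scaled to the library total), each centred on its vehicle mean. The ranking held 11276 rows with a mean CPM of at least 1 and left out predicted and clone-named rows. The most alike were Tead4 (0.073), a TEAD transcription factor gene, Klf9 (0.077) and the annexin gene Anxa8 (0.077). F3 (0.083), which encodes tissue factor, and Hhipl1 (0.090) came next. For Gm57390, left out of the ranking by its name, the difference was 0.109. The 5 lie on chromosomes 6, 19, 14, 3 and 12. Their log2 fold changes ran from 0.55 to 0.69, and the measure itself picks rows with a change near that of Thra. F3 was the most abundant, at 88.5 ± 2.02 FPKM with vehicle and 142.9 ± 3.34 FPKM with Mic-628 (SD, n = 4 each).

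Promoter sequence was matched for Nr1d1 and for 1 of the 5 rows, Msl1, from the RefSeq windows of 250 bases before to 50 bases after a start site (GRCm38.p6). The Nr1d1 window (chr11:98775328-98775627, minus strand) is printed because Nr1d1 is the most changed row of the stretch, with capitals marking the reverse complement of the E-box-like motif CACGTT, 28 bases before the start site:

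Nr1d1 promoter: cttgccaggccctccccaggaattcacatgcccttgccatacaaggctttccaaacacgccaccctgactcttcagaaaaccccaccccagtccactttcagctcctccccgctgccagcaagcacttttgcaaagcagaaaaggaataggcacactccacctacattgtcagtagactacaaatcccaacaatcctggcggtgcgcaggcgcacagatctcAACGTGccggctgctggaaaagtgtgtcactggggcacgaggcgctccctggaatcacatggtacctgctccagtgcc

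CACGTT was found, on either strand, in 4.68% of 32851 windows of this length. The palindromic E-box CACGTG, held by 7.15% of windows, and the nuclear receptor half-site AGGTCA, held by 16.3%, were not in the Nr1d1 window or in either Msl1 window. The first Msl1 window held 5 copies of the GC box GGGCGG, a motif of 35.7% of windows, and the second held 0. These are matches of letters in a short window and say nothing of binding.

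The listed rows of a library summed to 18.1 M to 23.2 M counts. Of 8 fibroblast markers, 7 were detected and Fap was listed at 0 in every library. Their summed level was 4386 to 4558 FPKM with vehicle and 3826 to 3927 FPKM with Mic-628, and edgeR called 3 of 7 tested lower, the abundant Col1a2 (-0.14), Vim (-0.22) and Fn1 (-0.28), against 2.25% of all rows. The other 4, Col1a1, Thy1, Pdgfrb and Pdgfra, had log2 fold changes of -0.004 to 0.03 with no call. Over the 7 the median was -0.004. The part of these markers in the results above was not tested. The 12 markers of other cell types summed to 4.42 to 4.75 FPKM with vehicle and 4.06 to 4.88 FPKM with Mic-628. Most of that was Tubb3, at 3.85 ± 0.137 and 3.49 ± 0.341 FPKM (SD, n = 4 each; log2 fold change -0.15, edgeR adjusted p = 0.416). Krt8 had 0.412 ± 0.0975 and 0.605 ± 0.121 FPKM (SD, n = 4 each; log2 fold change 0.49, edgeR adjusted p = 0.258). Adgre1 and Myod1 were at 0 throughout and Ptprc and Epcam were at or under 0.060 FPKM. In bulk RNA, fewer cells with a transcript and less of it per cell cannot be told apart.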

How the data were processed

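The tools listed in the submitters' processing notes, without their roles, are STAR 2.7.10a, HOMER 4.11 and bcl2fastq, and the build is GRCm39 (mm39). The authors deposited exon read counts per canonical transcript, in steps of 0.5 and therefore treated as estimated counts, and FPKM for the same rows. FPKM recomputed from these counts, the exon length and the header totals differed by at most 5e-04. All 8 columns were matched by library name, and 0 were left over.

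Counts were rounded and fitted over the whole table with edgeR 4.0.16 in R 4.3.3 (filterByExpr with a minimum count of 10, TMM, quasi-likelihood F test, Benjamini-Hochberg adjustment). Rows with an adjusted p under 0.05 are called. TMM factors were 0.9946 to 1.0072. The test was also run on simulated counts with means and dispersions taken from these data, and the outcome is not reported here. A p-value here reflects only how far these libraries differ among themselves, possibly for technical reasons. Replicates differed by more than counting noise (chi-square per gene 1.64 to 5.17). The labels' batch numbers pair the libraries. Deviations of same-numbered libraries correlated at -0.0925, 0.0744, -0.0213 and -0.0949 over 10292 genes. Alternatives used limma 3.58.1 and DESeq2 1.42.0.

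The members, lists and alternatives were chosen with earlier results of these data known. Named by rule were Nr1d1 and its neighbours with a count in any library. So were called rows up to 500 kb away and the nearest tested row on each side. The rule also named called list members (where none, the 2 with the smallest p) and the 5 profiles most like Thra. Those 5 came from rows with a mean CPM of at least 1, with predicted and clone-named rows left out. Other list genes and Gm22059 were named after their values were seen, for their role or place. Distances are gaps between row ends on mm39. Exon overlap and promoters were read on GRCm38 only, and no coordinates were converted. Values of 1 list gene are not reported here.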

Additional observations from a re-analysis of the deposited data

Results flagged for a closer look

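Casc3 in vehicle replicate 2, at 18.9 FPKM, lay farther below the other vehicle libraries than their spread: 0.862 of the range of the 4 libraries was the gap to the next one, above Dixon's 95% limit for 4 values. It was the only one marked among 20 groups of 4 libraries examined (Nr1d1, the 5 rows, Gm12359 and the 3 ratios, in each treatment), and chance marks about 1 in 20. The cause was not tested.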

How the results depend on the processing

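Under 17 alternatives, 8 of which leave out 1 library, the log2 fold changes of Nr1d1, Thra, Gm57390, Med24, Msl1 and Casc3 kept their direction, except Med24 without Mic-628 replicate 2, and 2 of the 5 rows were called in each. Without 1 library, Thra ran from 0.58 to 0.65, Gm57390 from 0.62 to 0.73, Msl1 from 0.08 to 0.13, and Med24 from -0.02 to 0.05. Casc3 ran from 0.03 to 0.06, with 0.028 without Mic-628 replicate 1 and 0.030 without vehicle replicate 2. In these fits the median of the hormone transport list ran from -0.15 to 0.10, of receptor partners from -0.02 to 0.03, of targets from 0.01 to 0.04, of Mediator from -0.007 to 0.014, of MSL and NSL genes from 0.01 to 0.03, and of the exon junction list from 0.006 to 0.03. The count of all called rows (749) was 277 by limma-trend on log2(FPKM + 1), 273 with 0.1 added, 170 over all rows, and 426 to 802 without 1 library. The 2 called rows 50 to 500 kb away became 3 with library size only and 3 with no filter. The count was 1 with the stricter filter, 1 and 1 by limma-trend with either pseudocount, 0 over all rows, and 1 to 2 without 1 library. By DESeq2 the count was 2, with Rara but without Cdc6. For the MSL and NSL list (2 called) the count was 1 with library size only, 1 and 1 by limma-trend with either pseudocount, 0 over all rows, and 1 to 2 without 1 library. Receptor partners and Mediator subunits each had 0 to 1 without 1 library. The 10 called neighbours of other strongly changed rows became 20 with no filter, 6 with the stricter filter and 4 by DESeq2. That count was 4, 3 and 5 by the limma-trend fits, and 3 to 14 without 1 library. The changed rows and their neighbours were picked anew in each setting. Rara and Kansl2 lost their call by limma-trend over all rows alone (adjusted p 0.0918 and 0.0815). The causes were not tested.

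With the batch number as a replicate block the count of all called rows was 624, Thra had 0.62, and 1 row 50 to 500 kb away and 1 of the MSL and NSL list were called, the lost ones being Cdc6 and Ogt. It changed no call of Nr1d1, the 5 rows, Rara, Klf9 or Kansl2, and the markers of cell types were not compared between the fits. Depth limits the untested rows beside Nr1d1, and labels without doses or culture origins limit what the groups stand for.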

Other observations

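Neighbours of other strongly changed rows were counted in the same fit, to set the Nr1d1 stretch beside them. This count takes every tested row, while the 5 rows described around Nr1d1 leave out Gm12359, which was tested and not called. Apart from Nr1d1, 27 rows were called with a change of at least 2-fold, and 96 tested rows lay within 50 kb of one of them. Of these 96, 10 were called (10.4%, against 4.37% of all tested rows), 8 in the direction of the changed row and 2 in the other. The median log2 fold change of the 96, signed by the changed row, was 0.05. Of 3 that overlap the changed row, with a median of -0.01, edgeR called 0. Some of the 10 called rows lie beside the same changed row, and mt-Rnr2, also among the 10, is a mitochondrial row. The 96 share 27 changed rows and are not independent, so this is a description. The count of 10 was 4 by DESeq2, 3 without vehicle replicate 2, 4 without vehicle replicate 3 and 6 without Mic-628 replicate 3. In each of these settings the changed rows and their neighbours were picked anew, so they need not be the same rows.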
